A study of Homo sapiens with 3 samples.

Results

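The SLC25 family of mitochondrial carriers was examined in KG1 cells, an established line from acute myeloid leukemia (AML), with UCP2, the member that the hairpins of the experiment were directed against. Members were taken by name, as every gene with an SLC25A symbol followed by a number and, in addition, UCP1, UCP2 and UCP3, which gave 51 of the 61806 genes in the table. RNA sequencing covered 3 libraries of KG1 cells kept in medium with fetal bovine serum. A single library served as control and carried a control lentivirus, described as a vector control in the labels and as scrambled short hairpin RNA (shRNA) in the study's methods. The other libraries were labelled UCP2 knockdown and came from cells with the lentiviral hairpin shUCP2#2 or shUCP2#3, 1 library each. The design text of the series numbers the hairpins #1 and #2, and the sample titles were followed here. Transduced cells were selected by flow cytometry, and the methods also speak of clones, so that each library may stand for 1 clone. The labels do not state whether the cultures behind them were separate.

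SLC25 carriers sit in the inner mitochondrial membrane, which is closed to most charged metabolites, and exchange nucleotides, carboxylates, amino acids and cofactors between matrix and cytosol. They share a fold of repeated helices and are imported as unfolded precursors through the outer membrane pore and the small TIMM chaperones. UCP2, uncoupling protein 2, is linked to proton leak and to the export of carbon compounds from the matrix. SLC25A17 is a member that works in peroxisomes, and SLC25A46 is in the outer mitochondrial membrane. In blood cells the family is best known for SLC25A37 and SLC25A38, which feed iron and glycine into heme synthesis.

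To give the sequence context of the members on which the results turn, the promoters of SLC25A1 and SLC25A14, carriers called lower, and of UCP2, the targeted gene, are shown. Each is the 190 bases before the gene's start in RefSeq (GRCh38.p14), written 5′ to 3′ on the strand of the gene. Capitals mark matches on either strand to the GC box (GGGCGG), the CCAAT box (CCAAT) and an ETS motif (CCGGAAG). The stretches are chr22:19178737-19178926 (minus strand) for SLC25A1, chrX:130339729-130339918 (plus strand) for SLC25A14 and chr11:73982844-73983033 (minus strand) for UCP2.
SLC25A1: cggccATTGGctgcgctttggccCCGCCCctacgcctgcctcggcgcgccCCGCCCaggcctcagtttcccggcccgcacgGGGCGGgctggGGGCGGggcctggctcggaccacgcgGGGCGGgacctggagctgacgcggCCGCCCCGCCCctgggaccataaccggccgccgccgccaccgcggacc
SLC25A14: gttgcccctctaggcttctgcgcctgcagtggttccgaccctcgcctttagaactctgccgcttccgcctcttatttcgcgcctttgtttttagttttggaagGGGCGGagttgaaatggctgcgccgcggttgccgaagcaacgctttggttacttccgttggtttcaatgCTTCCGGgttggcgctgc
UCP2: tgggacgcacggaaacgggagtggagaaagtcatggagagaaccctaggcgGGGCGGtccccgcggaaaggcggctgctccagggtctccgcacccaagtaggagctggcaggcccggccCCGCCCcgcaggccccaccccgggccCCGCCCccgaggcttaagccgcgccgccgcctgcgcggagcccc
SLC25A1, the citrate carrier, had 7 GC boxes in this stretch, with overlapping matches counted separately, and 1 CCAAT box. The stretch of SLC25A14 held 1 GC box and 1 ETS motif close to the start, and that of UCP2 held 3 GC boxes. Promoter windows of 300 bases, 250 before and 50 after the start, were found for 43 of the 51 members. These members had 54 windows, and for each member the window nearest the gene's listed start was kept. No such choice was made for the promoters of all genes, where a gene may count more than once. A GC box was present in 30 of these 43 and in 45.0% of 35116 promoters of all genes. A CCAAT box was present in 19 of 43 against 34.6% of all, an ETS motif in 9 of 43 against 10.3%, and the E-box CACGTG in 7 of 43 against 7.26%. The GATA motif AGATAA was present in 2 of 43 against 10.3%, the cyclic AMP element TGACGTCA in 2 against 1.85%, and the sterol element TCACNCCAC in 1 against 1.13%. The ATF4 composite TTGCATCA matched 0 of 43 member promoters, and 0.866% of all promoters held it. These matches are descriptions of letters and do not show binding.

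Summed over genes, the depth was 18375090 counts for the control, 16475165 for shUCP2#2 and 17562153 for shUCP2#3, as the hairpin libraries are called below after their labels. A gene with 0 counts could have had up to 0.163 to 0.182 CPM (counts scaled to library size, from 3 counts of the total), a limit that covers counting error only. Levels between genes were compared as FPKM, counts scaled to exon length and library size, and differences between libraries as log2 fold changes of counts. The cell type was checked against its markers. Of 12 myeloid and progenitor markers, 5 were above 10 CPM in all 3 libraries (PTPRC, GATA2, CD33, SPI1 and KIT). Another 4 were at 0 counts in all (CD38, MPO, HLA-DRA and HLA-DRB1), and CD34 had 0, 10 and 0 counts. Of 12 erythroid markers, 10 were above 10 CPM in all libraries, and their summed level was 4297 CPM in the control, 3294 in shUCP2#2 and 3295 in shUCP2#3. The myeloid markers at or near 0 and the erythroid levels go against the markers known for KG1. The name is kept here as the label gives it. Fibroblast markers stood apart in shUCP2#2, where COL1A1 had 507 counts against 0 and 0, and COL1A2 had 806 against 2 in the control and 3 in shUCP2#3. Of the 10 fibroblast markers, FN1 alone was above 10 CPM in all libraries, at 267 CPM in the control, 279 in shUCP2#2 and 206 in shUCP2#3. The other 9 summed to 1.42, 161 and 2.15 CPM in the same order, and with FN1 the sums were 268, 441 and 208 CPM. For most carriers, values are therefore given for each hairpin library by itself, beside a fit of both. For several genes of the lists further below only the fit is given. There the fibroblast marker counts of shUCP2#2 are not kept apart.

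The first question was whether the transcript of the targeted gene was lower. UCP2 (ENSG00000175567, chromosome 11, 73974672 to 73982843, minus strand) had 651 counts in the control, 608 in shUCP2#2 and 649 in shUCP2#3. Its level was 12.80, 13.33 and 13.35 FPKM in the same order, so that both hairpin libraries lay slightly above the control. The fitted fold of the libraries labelled shUCP2 over the control was 1.04, with a 95% interval of 0.85 to 1.28 (log2 fold change 0.06 ± 0.15 SE, adjusted p = 0.888 in edgeR's quasi-likelihood test with Benjamini-Hochberg adjustment). By counting error alone the ratio to the control was 1.05 (95% interval 0.93 to 1.17) in shUCP2#2 and 1.04 (0.93 to 1.16) in shUCP2#3. A lower UCP2 transcript was thus not detected in either library, and every difference below is one between libraries labelled shUCP2 and the control. By other measures, immunoblot and qPCR, the study reported strong loss of UCP2 protein and transcript with both hairpins in KG-1 and THP-1 cells. The reason for this difference was not tested.

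Next, the level of every carrier in KG1 cells was described. The mean FPKM over the libraries was 100 or more for 2 members, 10 to 100 for 16, 1 to 10 for 18 and under 1 for 15. SLC25A5, the ADP/ATP carrier of dividing cells, came first at 551.04 FPKM in the control, 504.74 in shUCP2#2 and 494.63 in shUCP2#3. It alone made up 44.1% to 44.5% of the summed FPKM of all members in the 3 libraries, and the 4 highest members made up 72.1% to 73.0%. SLC25A6, SLC25A1, SLC25A37 and SLC25A3 followed, and the ranges of these 5 over the libraries did not overlap. The order between genes rests on the exonic size by which FPKM divides, and the ranges do not cover an error in that size. In the control SLC25A3 had more counts than SLC25A6, 6976 against 5137, but its exonic size was 8896 bases against 1553. The ranges of SLC25A39 and SLC25A38 overlapped each other, and SLC25A17, SLC25A13 and SLC25A24 came after them, each apart from the next. The range of SLC25A24 did overlap those of SLC25A23 and SLC25A40, at ranks 12 and 13. UCP2 was 11th, with a range that overlapped that of SLC25A23, the next in order. From SLC25A20 at rank 14 to SLC25A51 at rank 24 each member overlapped its neighbour, as did those from SLC25A42 at rank 25 to SLC25A26 at rank 40. The order of neighbours within these runs was therefore not resolved, but their ends were apart. SLC25A20 ranged from 9.0 to 11.67 FPKM and SLC25A51 from 4.92 to 6.88, and SLC25A42 ranged from 2.58 to 3.08 and SLC25A26 from 0.37 to 0.52.

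**Figure D1:**
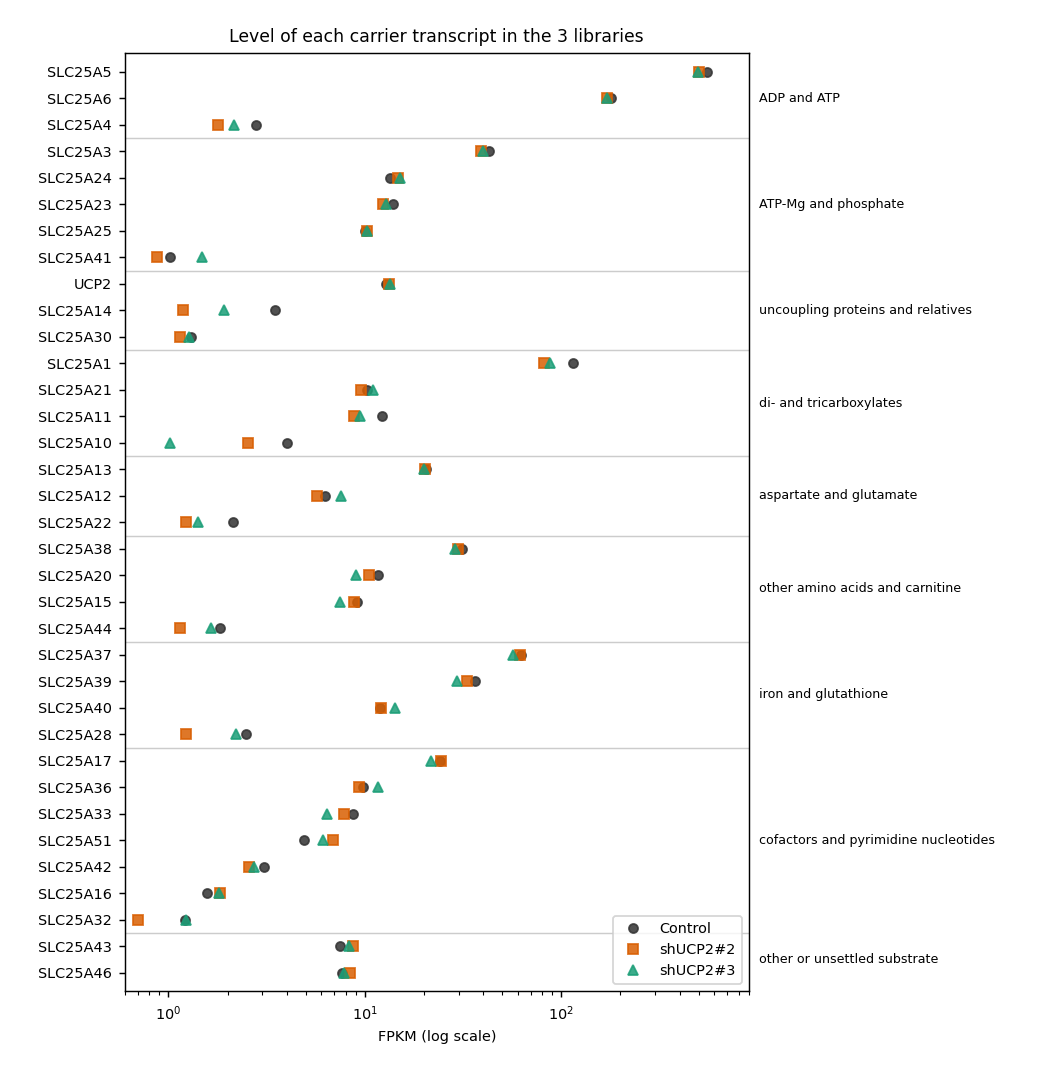
Level of 35 carriers with a mean FPKM of at least 1, as FPKM on a log axis, grouped by substrate, with 1 point for each of the 3 libraries. SLC25A5 and SLC25A6 lie above all others, and the points of most carriers lie close together, with SLC25A10 and SLC25A14 as visibly spread exceptions.

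To compare the libraries labelled shUCP2 with the control, counts were fitted across all genes. Of the 51 members, 42 passed the filter on low counts and were tested. SLC25A1, SLC25A10 and SLC25A14 were lower at an adjusted p under 0.05 (edgeR), which is 3 of 42 or 7.14%, beside 6.11% of all 15232 tested genes called lower. No member was called higher (0 of 42, beside 6.25% of all tested genes), with 1 member higher at an unadjusted p under 0.05 in edgeR and 0 called higher by DESeq2. The share called lower was thus near that of all genes. With no adjustment, 7 members were at p under 0.05 (16.7%, beside 22.7% of all tested genes), 6 of them lower. The log2 fold change was below 0 for 28 of 42 members (66.7%), beside 48.3% of all tested genes, and its median was −0.13, beside 0.02 over all. Taken singly, 30 of 42 members were below 0 in shUCP2#2 with a median of −0.13, and 29 of 42 were below 0 in shUCP2#3 with a median of −0.14, where the medians of all tested genes were 0.01 and 0.00. Both hairpin libraries were set against the same control library. Since RNA was taken from whole cultures, fewer cells of a kind and less RNA per cell cannot be told apart. The spread behind these p-values is a trend over all tested genes by abundance, taken from the differences between the 2 shUCP2 libraries, and the single control is assumed to vary like them. A gene's own spread between the hairpins did not enter, since edgeR gave the trend full weight. SLC25A10 and SLC25A14 therefore have the same SE of 0.31, although their hairpin libraries were 1.30 and 0.65 apart on the log2 scale. The spread may be technical. The 3 calls were lost in edgeR without the abundance trend of the spread (adjusted p of 0.425 to 0.472, with an unadjusted p of 0.126 for SLC25A10) and with limma on log2(FPKM + 1) (0.115 to 0.270), and with DESeq2 SLC25A1 alone was called (adjusted p = 0.0026), SLC25A10 and SLC25A14 having received no adjusted p.

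**Figure D2:**
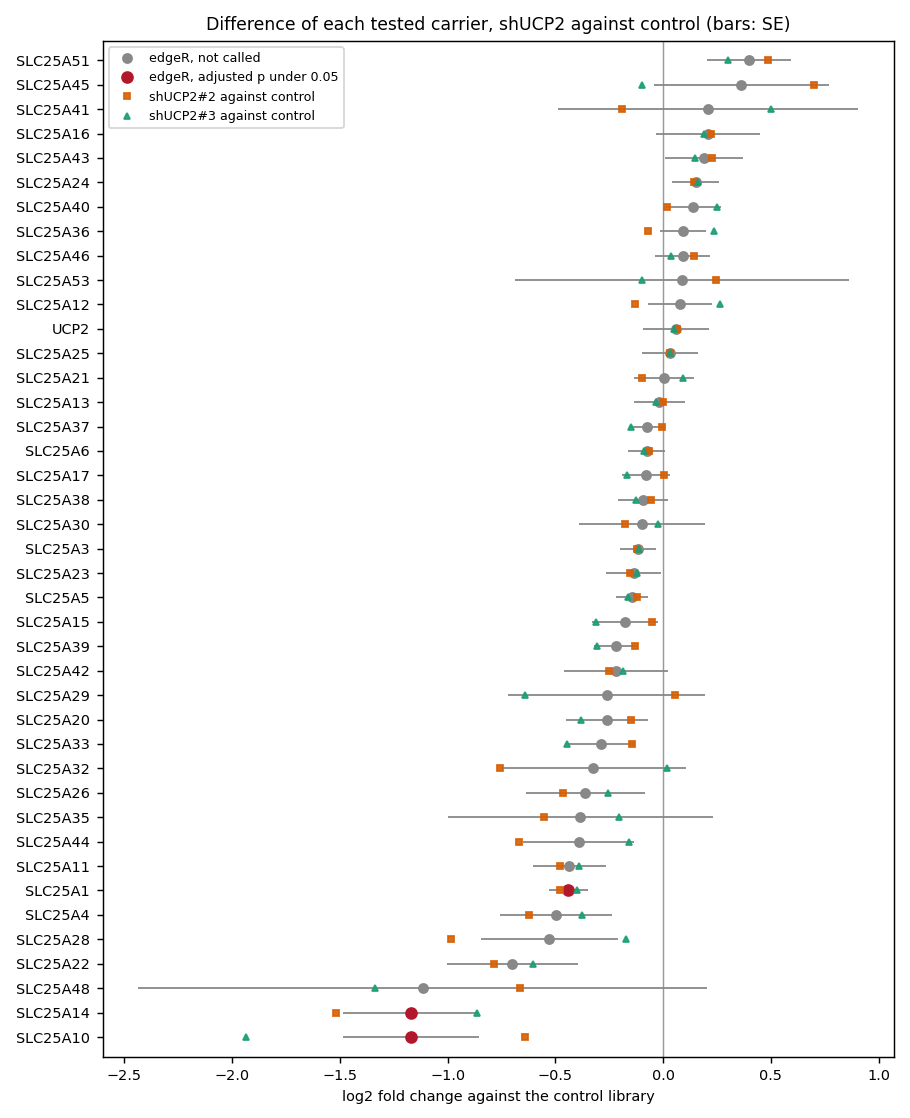
Log2 fold change of 41 tested carriers against the control library, ordered by the fitted value (circles, with bars of 1 SE) with the value of each hairpin library (squares and triangles). The 3 called carriers are drawn in red, and SLC25A10 and SLC25A14 lie farthest to the left.

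Carriers of di- and tricarboxylates, which move citrate, malate, succinate and oxoglutarate, held 2 of the 3 calls. All 4 of the group were tested, 2 were lower, 0 were higher, and the median log2 fold change was −0.44. Among all tested genes 6.11% were called lower and 6.25% higher, and no test of this small group was made. SLC25A1, the citrate carrier that supplies cytosolic acetyl-CoA for lipid synthesis (ENSG00000100075, chromosome 22, 19175581 to 19178739, minus strand), had 4203 counts in the control, 2694 in shUCP2#2 and 3058 in shUCP2#3. Its level was 114.42, 81.80 and 87.11 FPKM, and both hairpin libraries lay below the control. It fell by 0.44 ± 0.09 (SE) on the log2 scale (adjusted p = 5.12e-05, edgeR), with a fold of 0.74 and a 95% interval of 0.65 to 0.83. Within each hairpin library the ratio to the control was 0.72 (counting interval 0.68 to 0.75) and 0.76 (0.72 to 0.79). In CPM its level was 229 in the control and 169 ± 6.35 (SD, n = 2) in the libraries labelled shUCP2.

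SLC25A10, the dicarboxylate carrier that exchanges malate or succinate for phosphate (ENSG00000183048, chromosome 17, 81712236 to 81721016, plus strand), had 193 counts in the control, 110 in shUCP2#2 and 47 in shUCP2#3. Its level was 4.01, 2.55 and 1.02 FPKM, so that shUCP2#3 was the lowest by far and shUCP2#2 lay between it and the control. The log2 fold change was −1.17 ± 0.31 (SE, adjusted p = 0.0036 in edgeR). By library it was −0.64 in shUCP2#2 and −1.94 in shUCP2#3, with ratios to the control of 0.64 (counting interval 0.50 to 0.81) and 0.25 (0.18 to 0.35). The size of the difference therefore depended on which hairpin library was read. In GENCODE 29, 46.6% of the exonic bases of SLC25A10 are shared with ENSG00000262660, a gene on the same strand that had 0 counts in all libraries, and how reads in the shared part were counted is not given in the sources used here.

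SLC25A11, the oxoglutarate carrier of the malate-aspartate shuttle, had 558 counts in the control, 357 in shUCP2#2 and 409 in shUCP2#3 (12.29, 8.77 and 9.42 FPKM). Both hairpin libraries lay below the control by nearly the same log2 fold changes as for SLC25A1, −0.48 and −0.39, but with the smaller counts it did not pass the test (−0.44 ± 0.17 SE, adjusted p = 0.072, edgeR). It shares 9.14% of its exonic bases with RNF167 on the opposite strand, which had 790, 700 and 733 counts. SLC25A21, which moves oxoadipate in lysine and tryptophan breakdown, had 895, 747 and 919 counts. The control lay between the hairpin libraries, and its fitted log2 fold change of 0.002 ± 0.14 (SE) has no stable sign, being −0.0027 with DESeq2 and −0.00015 with limma on log2(FPKM + 0.1).

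Among the uncoupling proteins and their relatives, 3 of 6 were tested and 1 was lower, beside 6.11% of all tested genes called lower. SLC25A14, a relative of the uncoupling proteins best known from brain (ENSG00000102078, chromosome X, 130339888 to 130373361, plus strand), had 193 counts in the control, 59 in shUCP2#2 and 101 in shUCP2#3. Its level was 3.49, 1.19 and 1.91 FPKM, below the control in both hairpin libraries. The log2 fold change was −1.17 ± 0.31 (SE, adjusted p = 0.0036 in edgeR), and −1.52 and −0.86 in shUCP2#2 and shUCP2#3 singly. UCP2 exceeded SLC25A14 by an FPKM ratio of 3.67 in the control, 11.2 in shUCP2#2 and 6.99 in shUCP2#3. SLC25A30, a kidney-rich relative, was at 1.30, 1.14 and 1.28 FPKM and did not pass the test (adjusted p = 0.903, edgeR). UCP1, the heat-producing protein of brown fat, and SLC25A27, a brain relative, had 0 counts in all libraries, and UCP3, known from muscle, had 0, 0 and 1.

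**Figure D3:**
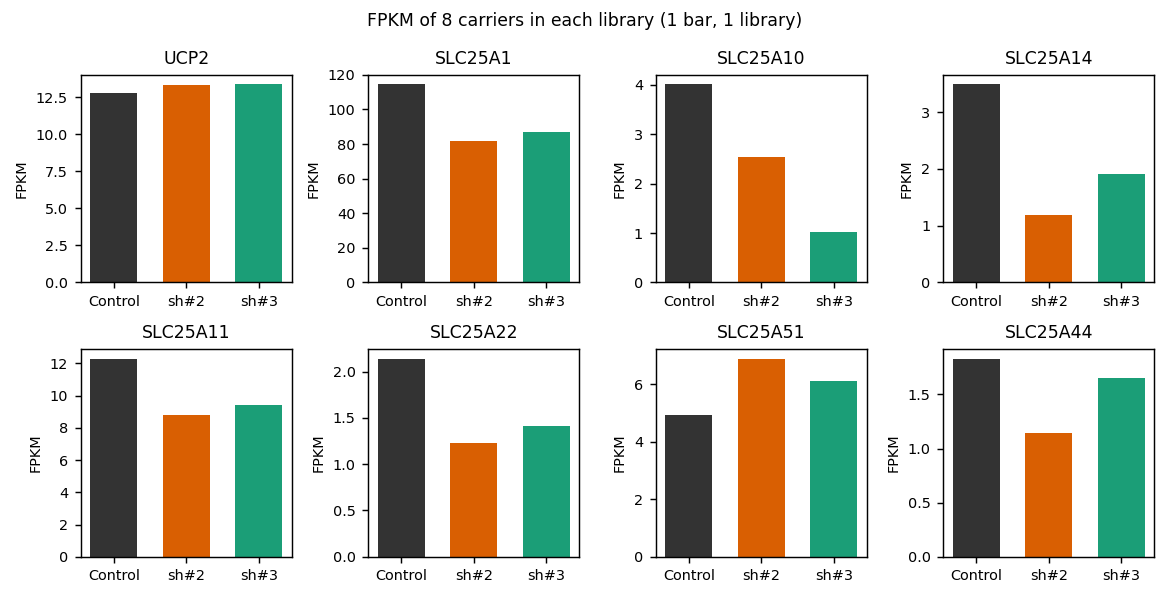
FPKM of UCP2, the 3 called carriers and 4 others in each library, with 1 bar for each library and each axis starting at 0. The UCP2 bars stand at 12.80 to 13.35 FPKM, whereas SLC25A1, SLC25A10, SLC25A14, SLC25A11 and SLC25A22 stand lower in both hairpin libraries and SLC25A51 stands higher.

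ADP/ATP carriers, which export ATP made in the matrix, were not called in any direction, and all 3 tested members had values below 0. SLC25A5 had 15745 counts in the control, 12931 in shUCP2#2 and 13508 in shUCP2#3. Both hairpin libraries lay below the control, and its log2 fold change of −0.14 ± 0.07 (SE) did not pass the test (adjusted p = 0.233, edgeR). SLC25A6, the widely expressed copy of this carrier, was at 180.01, 171.50 and 170.57 FPKM, with adjusted p = 0.692 in edgeR. The FPKM ratio of SLC25A5 to SLC25A6 stayed between 2.90 and 3.06 over the libraries. SLC25A4, the copy of heart and muscle, was far lower, at 2.78, 1.79 and 2.15 FPKM, and SLC25A31, a testis form, had 0 counts in all. These copies are alike in sequence, so reads could be split between them.

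Carriers of ATP-Mg and phosphate were all tested, and 0 of 5 were called (edgeR), with 0 at an unadjusted p under 0.05. SLC25A3, which brings in the phosphate for ATP synthesis, was at 42.68 FPKM in the control, 39.12 in shUCP2#2 and 39.75 in shUCP2#3. The calcium-regulated carriers SLC25A24, SLC25A23 and SLC25A25 had mean levels of 14.5, 13.0 and 10.2 FPKM. SLC25A24 was at 13.48, 14.83 and 15.16 FPKM, with both hairpin libraries slightly above the control (adjusted p = 0.451, edgeR). SLC25A41, a short relative without the calcium-binding part, had 31, 24 and 43 counts, with the control between the hairpins.

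In the aspartate and glutamate group, 3 of 4 were tested and 0 were called (edgeR), with 1 at an unadjusted p under 0.05. SLC25A13, the aspartate/glutamate carrier citrin, was at 20.38, 20.27 and 20.04 FPKM, with little spread. SLC25A12, its relative of excitable tissues, was at 6.28, 5.71 and 7.58 FPKM, with the control between the hairpin libraries. SLC25A22, which imports glutamate with a proton, had 181 counts in the control, 93 in shUCP2#2 and 114 in shUCP2#3. Both hairpin libraries lay lower, but the log2 fold change of −0.70 ± 0.30 (SE) did not pass the test (adjusted p = 0.124, edgeR). SLC25A18, the other glutamate carrier, had 9, 4 and 5 counts and was not tested.

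As the study is about branched-chain amino acids (BCAAs), the carriers of other amino acids were read with SLC25A44, which imports BCAAs into mitochondria. SLC25A44 had 245 counts in the control, 137 in shUCP2#2 and 211 in shUCP2#3, or 1.83, 1.14 and 1.65 FPKM. The low library was shUCP2#2, with a ratio to the control of 0.63 (counting interval 0.50 to 0.77), whereas that of shUCP2#3 was 0.90 (0.74 to 1.08). Its fitted log2 fold change of −0.39 ± 0.26 (SE) did not pass the test (adjusted p = 0.387, edgeR). SLC25A15, the ornithine carrier of the urea cycle, was at 9.17, 8.80 and 7.43 FPKM (adjusted p = 0.554, edgeR). SLC25A29, a carrier of basic amino acids, had 71, 66 and 43 counts, with shUCP2#3 alone lower than the control. SLC25A38, the glycine carrier of heme synthesis, was at 31.05, 29.71 and 28.60 FPKM, and SLC25A20, which exchanges carnitine for acylcarnitine in fatty acid oxidation, was at 11.67, 10.49 and 9.0 FPKM. All 5 tested members had values below 0, and 0 were called (edgeR), with 0 at an unadjusted p under 0.05. SLC25A2, a second ornithine carrier, had 0 counts in all.

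The iron and glutathione group, with SLC25A37 and SLC25A28 (mitoferrins) and SLC25A39 and SLC25A40 (glutathione), had 4 tested members and 0 calls (edgeR), with 1 at an unadjusted p under 0.05. SLC25A37, the mitoferrin of red cell precursors, had 9142 counts in the control, 8135 in shUCP2#2 and 7930 in shUCP2#3 (62.22, 61.75 and 56.47 FPKM). It stayed high in every library, and its difference did not pass the test (log2 fold change −0.08 ± 0.08 SE, adjusted p = 0.666, edgeR). In the same libraries 7 of 12 erythroid markers (58.3%, beside 6.11% of all tested genes) were called lower, among them GATA1 and KLF1 (edgeR), and the part of this in the carrier values was not tested. SLC25A28, the widely expressed mitoferrin, had 155, 69 and 132 counts, with shUCP2#2 lowest. The FPKM ratio of SLC25A37 to SLC25A28 was 25.2 in the control, 50.4 in shUCP2#2 and 25.7 in shUCP2#3. SLC25A39 was at 36.35, 33.05 and 29.57 FPKM, lower in both hairpin libraries, without passing the test (log2 fold change −0.22 ± 0.10 SE, adjusted p = 0.169, edgeR). SLC25A40, its paralog, was at 11.94, 12.06 and 14.29 FPKM, so that the FPKM ratio of SLC25A39 to SLC25A40 was 3.05, 2.74 and 2.07.

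Carriers of cofactors and pyrimidine nucleotides formed the largest group, with 9 of 10 tested and 0 called (edgeR), and with 1 at an unadjusted p under 0.05. SLC25A51, which brings NAD+ into mitochondria, had 307 counts in the control, 385 in shUCP2#2 and 364 in shUCP2#3. Both hairpin libraries lay above the control, but the log2 fold change of 0.40 ± 0.19 (SE) did not pass the test (adjusted p = 0.191, edgeR). SLC25A17, the peroxisomal cofactor carrier, was at 24.26, 24.27 and 21.70 FPKM, and SLC25A36, a pyrimidine nucleotide carrier, was at 9.83, 9.33 and 11.66 FPKM. SLC25A33, the other pyrimidine nucleotide carrier, was at 8.66, 7.81 and 6.39 FPKM, so that the FPKM ratio of SLC25A36 to SLC25A33 was 1.14, 1.20 and 1.82. SLC25A32, which carries folate and FAD, had 81, 42 and 79 counts, and shUCP2#2 was the low library. It shares 11.1% of its exonic bases with DCAF13 on the opposite strand (2777, 2091 and 2159 counts) and 69.7% with ENSG00000285982 on its own strand, which had 0 counts in all. SLC25A16 and SLC25A42 (coenzyme A) and SLC25A26 (S-adenosylmethionine) had mean levels of 1.73, 2.79 and 0.44 FPKM. SLC25A52, a near copy of SLC25A51, had 0 counts in all.

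Of the 8 carriers with another or an unsettled substrate, 6 were tested and 0 were called (edgeR), with 0 at an unadjusted p under 0.05. SLC25A43 was at 7.44, 8.68 and 8.28 FPKM, and SLC25A46, an outer membrane protein of mitochondrial shape, was at 7.61, 8.38 and 7.86 FPKM, both slightly above the control in each hairpin library. SLC25A45 had 68, 100 and 61 counts, with shUCP2#2 alone higher, and SLC25A48 had 19, 10 and 6. SLC25A35, at 0.55 FPKM on average, shares 33.2% of its exonic bases with RANGRF on the opposite strand, and SLC25A53 was at 0.23. SLC25A34 and SLC25A47, the latter known from liver, had 0 counts in all.

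The hairpin libraries were then compared with each other for the same carriers. The log2 fold changes of shUCP2#2 and shUCP2#3 were 0.5 or more apart for 9 of 42 tested members, beside 22.2% of all tested genes, so the carriers were near the background here. These were SLC25A10, SLC25A14, SLC25A28, SLC25A29, SLC25A32, SLC25A41, SLC25A44, SLC25A45 and SLC25A48. SLC25A10 was lower in shUCP2#3, with a CPM ratio of shUCP2#3 to shUCP2#2 of 0.40 (counting interval 0.28 to 0.56), and SLC25A14 was higher there, with a ratio of 1.59 (1.14 to 2.23). The mitoferrin SLC25A28 had the highest ratio, 1.78 (1.32 to 2.41), followed by the folate and FAD carrier SLC25A32 at 1.75 (1.19 to 2.61). For SLC25A44 the ratio was 1.43 (1.15 to 1.79). For SLC25A45 it was 0.57 (0.40 to 0.79) and for SLC25A29 it was 0.60 (0.40 to 0.90). For SLC25A41 and SLC25A48, both under 50 counts in every library, the counting intervals included 1. The ratio of UCP2 was 0.99 (0.89 to 1.11). With 1 library for each hairpin these ratios have no test. The library shUCP2#2 was also the one with fibroblast marker counts, and the part of these in the ratios was not tested.

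**Figure D4:**
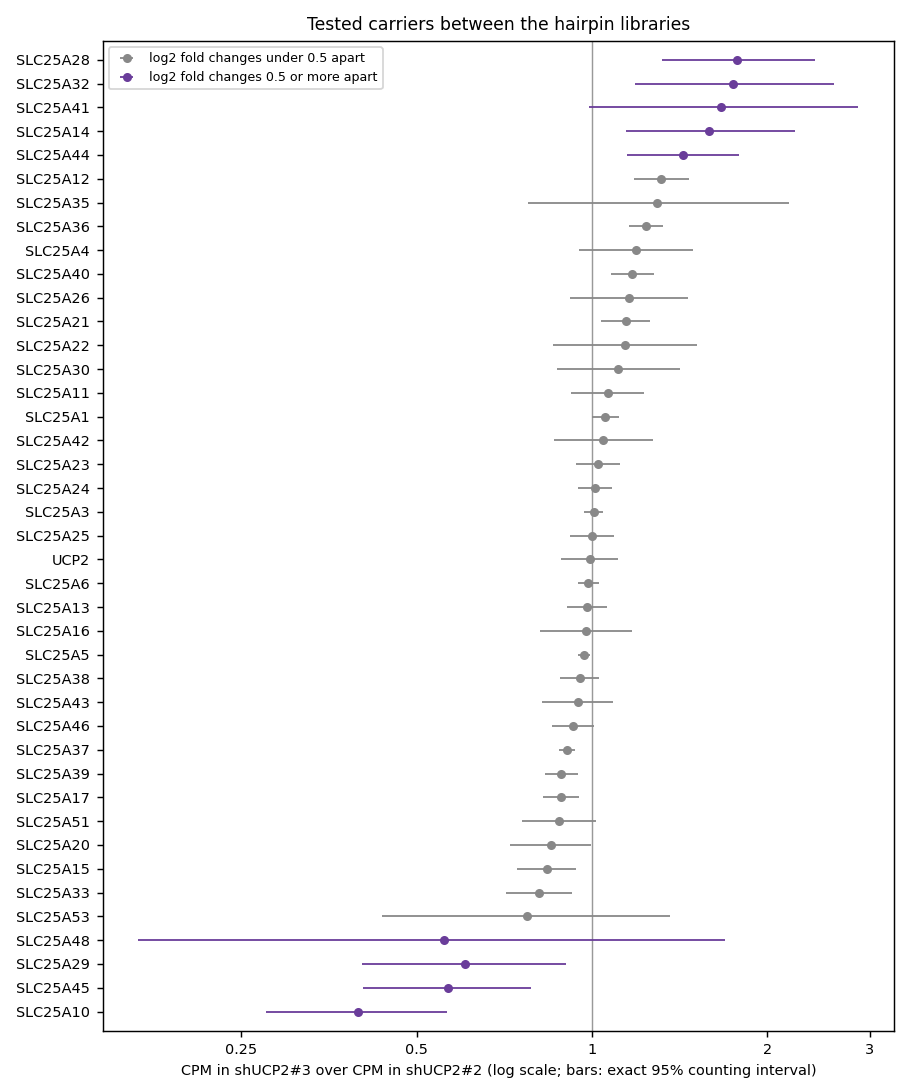
Ratio of CPM in shUCP2#3 to CPM in shUCP2#2 for 41 tested carriers on a log axis, with exact 95% intervals that cover counting error only. Purple marks the 9 carriers whose log2 fold changes were 0.5 or more apart, with SLC25A28 at 1.78 at the top and SLC25A10 at 0.40 at the bottom.

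Other genes of the same pathways were read from lists. Of 13 genes that import carrier precursors, 3 fell and 0 rose (edgeR), or 23.1% and 0%, beside 6.11% lower and 6.25% higher among all tested genes. The median log2 fold change of the list was −0.32, beside 0.02 over all, and no test of the list was made. TOMM40, the channel of the outer membrane, had 1768 counts in the control, 780 in shUCP2#2 and 895 in shUCP2#3 (−0.97 ± 0.12 SE, adjusted p = 7.18e-13, edgeR). TIMM13 and TIMM10B, small chaperones between the membranes, fell by 0.66 and 0.50 on the log2 scale. Among 19 other transport proteins of mitochondrial membranes, 1 rose and 1 fell, or 5.26% each way, near the shares of all genes, with a median of −0.05. MCU, the pore of the calcium uniporter, had 1395, 1599 and 1833 counts (0.41 ± 0.11 SE, adjusted p = 0.0056, edgeR). ABCB8, a transporter of the inner membrane, had 454, 222 and 274 counts (−0.77 ± 0.20 SE, adjusted p = 0.0022, edgeR).

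Of 42 enzymes that act on the carriers' substrates, 6 rose and 5 fell (edgeR), or 14.3% and 11.9%, beside 6.25% and 6.11% of all tested genes. The median log2 fold change was −0.03, beside 0.02 over all, and this list was not tested as a whole either. Beside the citrate carrier, ACLY, which splits exported citrate, had 5499 counts in the control, 3590 in shUCP2#2 and 4186 in shUCP2#3 and fell by 0.39 ± 0.09 (SE) on the log2 scale. Like SLC25A1, it lay below the control in both hairpin libraries. MTHFD2, an enzyme of mitochondrial folate metabolism, had 10075, 15135 and 16203 counts and rose by 0.75 ± 0.08 (SE). Among glutathione enzymes GCLC, which makes the first bond, rose by 0.57 and GSR, the reductase, rose by 0.27, whereas GSS, the synthetase, fell by 0.51. GOT1 of the malate-aspartate shuttle rose by 0.35, CPT1A, the entry step of fatty acid oxidation, rose by 0.48, and RFK, which makes the flavin FMN, rose by 0.47. POLRMT, the mitochondrial RNA polymerase, fell by 0.70 and MAT2A, which makes S-adenosylmethionine, fell by 0.31.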

How the data were processed

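RNA of 3 KG1 libraries (1 control, 2 labelled shUCP2) was analysed. The labels name total RNA as the molecule but give an extraction protocol for DNA, and the data were taken to be RNA sequencing. In a single table the authors deposited raw read counts per gene and FPKM, which equals the count scaled by exonic size and by the library's summed counts, rounded to 2 decimals. The submitters' processing notes list the build GRCh38 and, as tools, DESeq2, HTSeq 0.6.1, HISAT2 2.2.1, Cufflinks 2.2.1, cutadapt 1.9.1 and SAMtools 0.1.19. Which annotation release and strand setting served for counting is not given in the sources used, and reads of genes that overlap on either strand cannot be told apart. Of the genes, 20417 had no symbol.

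The test across genes was run with edgeR 4.0.16 under R 4.3.3 (filterByExpr, TMM, quasi-likelihood F test). It was two-sided, with Benjamini-Hochberg adjustment over all tested genes at 0.05. With 1 residual degree of freedom and an infinite prior, every gene took the spread of the abundance trend. The steps were tested on simulated data drawn with a spread from the trend over abundance. That simulation could not check a gene's own spread or that of the control. SE is the absolute log2 fold change divided by the square root of F. Values per hairpin are TMM-scaled log CPM with a prior count of 2. Ratios carry exact conditional binomial 95% intervals, for counting error only. FPKM compared levels between genes. Alternatives were other filters and scalings, limma 3.58.1, DESeq2 1.42.0 and leaving out each shUCP2 library. Exonic overlaps came from GENCODE 29 and promoters from RefSeq. Figures used Python 3.11.15 and matplotlib 3.10.9.

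The members and gene lists were chosen with earlier results of these data known. Values in all libraries were given for UCP2, members called or at an unadjusted p under 0.05, the 2 highest members of each substrate group, members 0.5 or more apart between hairpins, and SLC25A15, SLC25A29 and SLC25A44. Others are added for completeness. Genes of the lists were named where called. Values of a few genes and 1 promoter stretch are not reported here, though counts over lists and members include those genes.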

Additional observations from a re-analysis of the deposited data

How the results depend on the processing

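With other filters on low counts (no filter, or a mean FPKM of at least 1), RLE scaling or library totals, 3 carriers were called, SLC25A1, SLC25A10 and SLC25A14 each time, and 1564 to 1937 genes in all, against 1883. Without the abundance trend of the spread 0 genes and 0 carriers were called in edgeR (1770 genes and 3 carriers at an unadjusted p under 0.05), and the adjusted p was 0.425 for SLC25A1 and SLC25A14 and 0.472 for SLC25A10. DESeq2 called 630 genes and 1 carrier, SLC25A1 (adjusted p = 0.0026), and gave an adjusted p for 24 carriers, not for SLC25A10 or SLC25A14. With limma, log2(FPKM + 1) gave 2 genes and 0 carriers and log2(FPKM + 0.1) gave 1 gene and 0 carriers, with 2291 and 2306 genes at an unadjusted p under 0.05. There the adjusted p of SLC25A1 was 0.115 and 0.118, of SLC25A10 0.270 and 0.292, and of SLC25A14 0.179 and 0.191. The cause was not tested. SLC25A21 went from 0.002 to −0.0027 (DESeq2) and −0.00015 (limma, log2(FPKM + 0.1)), and no other tested carrier changed sign under these settings.

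Leaving out a shUCP2 library leaves 1 library against 1, a value with no test. SLC25A1 then ranged from −0.48 to −0.40, SLC25A14 from −1.52 to −0.86, and SLC25A10 from −1.94 without shUCP2#2 to −0.64 without shUCP2#3. Some carriers that were not called changed sign. Without shUCP2#3, SLC25A12 went from 0.08 to −0.14 and SLC25A36 from 0.09 to −0.07, and SLC25A17, SLC25A21, SLC25A29 and SLC25A41 also changed sign. Without shUCP2#2, the sign changed for SLC25A32, SLC25A45 and SLC25A53. No paired analysis was possible because the control carries no replicate number that it shares with a hairpin. Depth limits the 15 carriers under 1 FPKM, and with 1 control library the spread between control cultures was not measured.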

Other observations

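Processed copies of the carriers and their antisense genes have rows of their own. Of 43 rows named as SLC25A pseudogenes, 13 had counts and 36 had 3 or fewer counts in all. The highest was SLC25A24P1, with 68 counts in the control, 60 in shUCP2#2 and 70 in shUCP2#3. SLC25A5-AS1, which overlaps 15.1% of the exonic bases of SLC25A5, had 18, 30 and 10 counts. SLC25A25-AS1 had 40, 27 and 25 counts and SLC25A21-AS1 had 73, 48 and 65. These rows were chosen after their values were seen.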
